A study of Mus musculus with 564 samples.

Results

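The regions described here were the cis-regulatory elements (CREs) at the genes of NF-kB and its inhibitors, 10 genes that code for 5 subunits (Nfkb1, Nfkb2, Rel, Rela and Relb), 3 classical inhibitors (Nfkbia, Nfkbib and Nfkbie), the nuclear inhibitor family protein Nfkbiz and the deubiquitinase Tnfaip3. A CRE was taken when its centre lay within 25 kb of a RefSeq transcription start of 1 of these genes on mm10, which gave 61 of the 59190 CREs measured, and none lay in the windows of more than 1 of the genes. Of the 61 CREs, 50 were nearest to the start of the gene itself and 11 were nearer to the start of another gene. The number per gene ran from 3 at Nfkbib to 11 at Nfkbiz. ChIP-seq of H3K27ac, the acetylation of lysine 27 of histone H3 that marks active regulatory DNA, was done on bone marrow-derived macrophages (BMDMs), which are grown in culture from the marrow of male C57/BL6 mice. A pre-treatment lasting 1 h came first, using vehicle (DMSO) or 1 of 58 clinical kinase inhibitors (CKIs). The cells were then left unstimulated (UT) or given lipopolysaccharide (LPS) or interleukin 4 (IL-4), each at 10 ng/mL. Stimulation lasted 30 min, 1 h, 2 h or 4 h. There were 18 DMSO libraries in 9 groups of 2 and 546 CKI libraries. Of the CKI groups, 474 held 1 library and 36 held 2. IMD0354, the CKI of most interest here, had 11 libraries, 1 UT, 6 after LPS and 4 after IL-4. Each CKI was used at a concentration chosen for its intended target, so doses differ between compounds and compounds were not matched for dose.

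NF-kB transcription factors are dimers of the 5 subunits and are held in the cytoplasm of resting cells by the inhibitors, called IκBs. LPS, a component of bacterial walls that is sensed by TLR4, activates the IκB kinase (IKK) complex, whose catalytic subunits are coded by Chuk and Ikbkb. The kinase marks the IκBs for degradation, the dimers enter the nucleus, and among the genes they are known to activate are those of the IκBs, of Tnfaip3 and of several subunits, which form feedback loops. IL-4 signals through JAK kinases to STAT6, a separate route. IMD0354 is sold as an inhibitor of the kinase coded by Ikbkb, but in this study its concentration was set for another intended target, MAP4K5.

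The known sequence that NF-kB binds, the κB consensus, was searched on both strands in the promoter sequences of RefSeq, where 7 of the 10 genes had an entry. Nfkb1, Relb and Nfkbiz had none. Of the 7, 5 held a match in the 250 bases before at least 1 of their starts (Nfkb2, Rel, Nfkbia, Nfkbie and Tnfaip3), and Rela and Nfkbib held none there. These 7 genes had 10 promoter windows, and a gene with several counted if any of them held a match. Among all 32851 promoter windows, 7.25% held a match in the same stretch. That share is per window and not per gene, so it is not a like measure. For a gene with several starts, the stretch with the most matches is shown. The 7 stretches are shown because the courses at these promoters are compared below. They are on GRCm38.p6 (mm10), are written 5′ to 3′ along the gene, and end at the base before the start, with κB matches in capitals, where overlapping matches join into 1 run.
Nfkb2 promoter, chr19:46304487-46304736, plus strand: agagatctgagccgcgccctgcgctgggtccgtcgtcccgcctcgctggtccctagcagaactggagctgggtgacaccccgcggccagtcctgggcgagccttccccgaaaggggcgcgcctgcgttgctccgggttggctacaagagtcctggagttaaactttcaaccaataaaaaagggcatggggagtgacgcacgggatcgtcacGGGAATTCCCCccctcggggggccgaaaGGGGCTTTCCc
Rel promoter, chr11:23770970-23771219, minus strand: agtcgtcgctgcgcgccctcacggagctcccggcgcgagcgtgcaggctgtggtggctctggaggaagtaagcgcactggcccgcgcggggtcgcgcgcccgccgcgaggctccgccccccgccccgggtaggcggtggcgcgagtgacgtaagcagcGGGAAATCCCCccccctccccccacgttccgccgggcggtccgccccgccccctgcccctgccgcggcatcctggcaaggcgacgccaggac
Nfkbia promoter, chr12:55492648-55492897, minus strand: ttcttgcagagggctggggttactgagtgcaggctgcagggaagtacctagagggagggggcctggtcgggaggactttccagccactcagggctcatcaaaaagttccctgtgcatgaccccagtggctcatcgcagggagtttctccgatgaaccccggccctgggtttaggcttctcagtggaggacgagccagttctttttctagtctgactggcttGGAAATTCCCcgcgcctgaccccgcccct
Nfkbie promoter, chr17:45555450-45555699, plus strand: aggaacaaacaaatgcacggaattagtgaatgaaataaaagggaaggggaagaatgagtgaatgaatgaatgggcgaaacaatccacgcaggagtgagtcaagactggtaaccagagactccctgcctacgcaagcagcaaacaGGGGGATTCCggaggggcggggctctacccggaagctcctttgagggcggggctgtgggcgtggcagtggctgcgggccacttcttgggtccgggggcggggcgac
Tnfaip3 promoter, chr10:19015411-19015660, minus strand: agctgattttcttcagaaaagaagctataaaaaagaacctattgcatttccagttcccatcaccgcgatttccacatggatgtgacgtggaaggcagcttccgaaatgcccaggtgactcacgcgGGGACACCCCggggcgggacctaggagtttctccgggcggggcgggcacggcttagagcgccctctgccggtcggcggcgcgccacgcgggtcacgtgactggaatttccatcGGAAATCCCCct
Rela promoter, chr19:5637291-5637540, plus strand: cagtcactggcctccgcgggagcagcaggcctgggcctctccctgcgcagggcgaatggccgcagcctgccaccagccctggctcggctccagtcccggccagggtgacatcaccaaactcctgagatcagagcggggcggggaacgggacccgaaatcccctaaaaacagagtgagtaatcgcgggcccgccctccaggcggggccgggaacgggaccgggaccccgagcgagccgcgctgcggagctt
Nfkbib promoter, chr7:28766645-28766894, minus strand: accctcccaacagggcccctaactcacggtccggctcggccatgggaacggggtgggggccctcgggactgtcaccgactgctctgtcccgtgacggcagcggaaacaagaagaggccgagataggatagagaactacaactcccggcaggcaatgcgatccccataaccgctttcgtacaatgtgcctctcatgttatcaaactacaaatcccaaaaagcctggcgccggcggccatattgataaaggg

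At the Nfkb2 promoter 3 matches lay within 39 bp of the start, 2 of them overlapping, and the match at Nfkbia began 29 bp upstream. The Tnfaip3 promoter held 1 match 125 bp and another 12 bp upstream of the start. A match is a run of letters and was not tested as a bound site. In the central 1400 bp of each CRE, 23 of the 61 CREs (37.7%) held a match, against 26.62% of all CREs. So did 9 of the 10 CREs at the promoters, but the share over promoter CREs of all genes was not computed. Away from the promoters, 6 of the 8 CREs with the largest LPS difference of their gene held a match somewhere in their width. That share was not computed over other CREs, and no link of matches to the LPS change was tested. The stretches around these matches are given for the same reason, 120 bases each on the strand of the gene, with matches in capitals. The CRE at Rela fell after LPS and those of the other genes rose. The upstream CRE of Tnfaip3 and the intron CRE of Nfkbiz with the largest LPS differences held no match over their whole width.
Nfkb1 intron CRE, chr3:135670715-135670834, minus strand: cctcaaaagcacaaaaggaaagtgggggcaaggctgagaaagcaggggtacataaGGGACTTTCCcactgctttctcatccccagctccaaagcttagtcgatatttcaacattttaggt
Rel intron CRE, chr11:23754362-23754481, minus strand: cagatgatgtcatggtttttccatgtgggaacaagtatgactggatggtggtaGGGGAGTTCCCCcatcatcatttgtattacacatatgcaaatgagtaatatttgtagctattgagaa
Relb upstream CRE, chr7:19635513-19635632, minus strand: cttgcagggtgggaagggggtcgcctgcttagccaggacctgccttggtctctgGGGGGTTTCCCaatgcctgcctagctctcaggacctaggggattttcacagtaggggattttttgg
Nfkbia downstream CRE, chr12:55470242-55470361, minus strand: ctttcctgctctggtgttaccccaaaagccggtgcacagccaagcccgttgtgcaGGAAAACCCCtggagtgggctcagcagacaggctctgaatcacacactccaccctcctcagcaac
Nfkb2 exon CRE, chr19:46308973-46309092, plus strand: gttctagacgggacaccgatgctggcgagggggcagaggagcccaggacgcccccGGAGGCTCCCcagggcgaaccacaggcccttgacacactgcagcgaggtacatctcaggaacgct
Rela upstream CRE, chr19:5625393-5625512, plus strand: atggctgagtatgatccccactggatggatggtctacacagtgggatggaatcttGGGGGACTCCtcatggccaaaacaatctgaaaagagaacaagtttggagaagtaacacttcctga

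The scaled library totals ran from 4066894 to 12391409 and do not give depth. DMSO libraries differed from CKI libraries in contrast, a ratio that divides the median of the 10% strongest CREs by that of the 10% weakest. Contrast was 53.0 to 133.67 in DMSO, 10.85 to 27.85 in IMD0354 and 3.34 to 67.17 over all CKIs. Reads in CREs, estimated from the spacing of the values, were 2344196 to 4782598 in the 12 DMSO libraries where this could be done and 743951 to 2021065 in IMD0354. Promoters of 9 of 9 macrophage genes carried H3K27ac in DMSO at medians of 90.6 to 369 per kb, against a median of 20.5 per kb over all CREs. No CRE lay at the promoters of the T cell, B cell, neutrophil and epithelial genes examined, and of 4 fibroblast genes only Col1a1 had one, at 3.13 per kb. In bulk samples, fewer cells with a mark and less of the mark per cell cannot be told apart. Nothing in the labels says that replicates came from separate cultures, so p-values measure only the spread between these libraries.

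The first question was how the acetylation of these genes moves after LPS in DMSO cells. All values below are normalized read counts per CRE, and a CRE was called when the limma test over the 4 times had an adjusted p under 0.01 and the log2 difference from UT exceeded 1 at some time. LPS raised H3K27ac at most CREs of NF-kB and its inhibitors, at promoters and at distal CREs, and lowered it only at CREs in the windows of Rela and Nfkbib. Of the 61 CREs 56 passed the filter on low values, and 47 of these were called, 43 higher and 4 lower. Over all CREs 53.5% of 50697 were called, 29.0% higher and 24.6% lower. The median log2 difference at the time of the largest one was 2.02 over these 56 CREs and 0.37 over all. At the promoters, 9 of 10 were called, all higher, and every LPS library lay above both UT libraries at each of the 10. How often this separation occurs over all CREs was not counted.

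**Figure D1:**
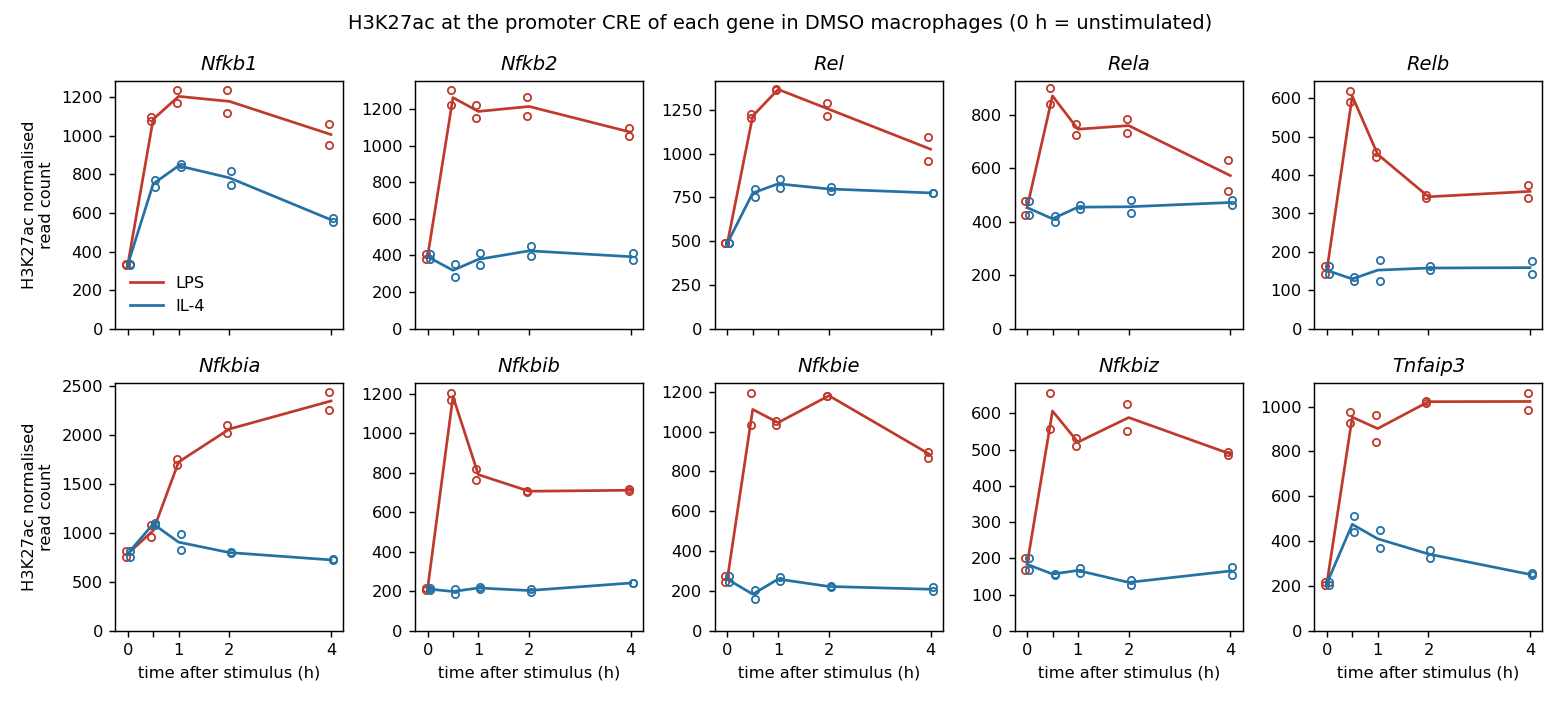
H3K27ac at the promoter CRE of each of the 10 genes in DMSO macrophages, as normalized read count against hours after LPS or IL-4, with 0 h the unstimulated libraries. Each point is 1 library and the lines join the means of 2. Every LPS library lies above both unstimulated libraries, a separation not counted over all CREs. The Nfkbia promoter CRE, which reaches over the gene, is the one that climbs up to 4 h.

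Nfkb1 codes for the precursor of the p50 subunit. At its promoter, chr3:135688288-135692305, the UT libraries had 329 and 337, and after LPS the libraries had 1076 and 1097 at 30 min, 1171 and 1239 at 1 h, 1121 and 1237 at 2 h and 954 and 1060 at 4 h. The groups did not overlap, and the log2 difference at 1 h was 1.84 ± 0.10 (SE, adjusted p = 9.78e-19, limma). All 9 CREs of Nfkb1 rose. The largest difference was in an intron 20436 bp downstream of the start (chr3:135668834-135673388), where both UT libraries had 25 and the LPS libraries climbed from 289 and 300 at 30 min to 901 and 1030 at 4 h, a 38.6-fold mean difference (log2 difference 5.01 ± 0.13, adjusted p = 9.25e-27). It is 1 of the CREs whose κB match is printed above.

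Nfkb2 codes for the precursor of p52, the subunit of the non-canonical pathway. Its promoter CRE, chr19:46303097-46306938, also holds the start of the long noncoding RNA 4833438C02Rik, and the 2 cannot be told apart. It had 379 and 408 in UT and 1223 and 1302 at 30 min, and still 1052 and 1095 at 4 h (log2 difference 1.67 ± 0.09 at 30 min, adjusted p = 6.04e-18). An exonic CRE 3338 bp downstream of the last of its starts (chr19:46308512-46310025) was low but also rose, from 4 and 8 to 67 and 71 at 4 h, by a log2 difference of 2.77 ± 0.29 (adjusted p = 1.85e-10). The 3rd CRE nearest to Nfkb2 missed the p threshold (adjusted p = 0.0138).

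Rel codes for c-Rel, a subunit prominent in immune cells. Its promoter (chr11:23768957-23773754) had 487 and 490 in UT, 1203 and 1228 at 30 min, 1364 and 1371 at 1 h and 957 and 1095 at 4 h (log2 difference 1.48 ± 0.09 at 1 h, adjusted p = 3.68e-16). Of its 6 CREs 5 rose. An intron CRE 17067 bp downstream (chr11:23752520-23755285), whose matches are printed above, went from 27 and 33 in UT to 460 and 489 at 30 min and 963 and 1058 at 2 h, a 33.7-fold mean difference (log2 difference 4.86 ± 0.13, adjusted p = 4.79e-26).

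Relb codes for the partner of p52. Its promoter (chr7:19627688-19630331) had 142 and 162 in UT and was highest at 30 min, at 591 and 620, before 340 and 347 at 2 h and 340 and 375 at 4 h (log2 difference 1.96 ± 0.13 at 30 min, adjusted p = 2.25e-14). A CRE 6073 bp upstream, in an intron of Clptm1 (chr7:19634693-19636329), moved in the same order, from 5 and 9 to 73 and 81 at 30 min and 48 and 56 at 4 h (log2 difference 2.79 ± 0.28, adjusted p = 7.9e-11).

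Rela, which codes for the main transactivating subunit, stood apart. Its promoter (chr19:5635873-5638816) had 427 and 479 in UT, 840 and 901 at 30 min and 516 and 629 at 4 h, a log2 difference of 0.94 ± 0.11 at 30 min that passed the p threshold (adjusted p = 8.57e-09) and missed that of size. None of its CREs was called higher and 2 nearest to it fell. The largest was an intergenic CRE 12031 bp upstream (chr19:5624717-5626303), with 32 and 38 in UT and between 0 and 17 in all 8 LPS libraries (log2 difference -1.96 ± 0.49 at 2 h, adjusted p = 0.00312). Without UT replicate 1 or 2 this call was lost (adjusted p = 0.0225 and 0.0474), and without UT replicate 2 the Rela promoter passed the size threshold (1.018). The CRE in an intron of the neighbouring Sipa1 (chr19:5660332-5662246) fell as well, by a log2 difference of -1.51 ± 0.15 at 30 min. The study's methods describe counting windows of fixed width, but the CREs of the table vary in width for a reason not given in the sources used here, so levels per kb hold only if reads were counted over the whole CRE. On that scale the Rela promoter was the highest of the 10 in UT cells, at 154 ± 12.5 (SD, n = 2), followed by Nfkb2 at 102 ± 5.34 and Rel at 102 ± 0.44, which overlapped each other, with Nfkbie lowest at 49.7 ± 4.47. Undivided by width, Nfkbia had the highest UT value.

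The classical inhibitors differed in their timing. Nfkbia codes for IκBα, the best known target of the feedback loop. Its promoter lies at the edge of a CRE of 8521 bp that reaches over the gene (chr12:55485143-55493663), so promoter and gene body cannot be told apart. UT libraries had 758 and 816, and LPS libraries had 962 and 1084 at 30 min, 1692 and 1754 at 1 h, 2019 and 2100 at 2 h and 2250 and 2442 at 4 h. The values climbed over the whole course, with no overlap between consecutive times, and the log2 difference at 4 h was 1.57 ± 0.08 (adjusted p = 9.97e-19). All 6 CREs of Nfkbia rose. The largest difference was at an intergenic CRE 22227 bp downstream (chr12:55469439-55471401), from 30 and 35 to 81 and 136 at 30 min and 402 and 486 at 4 h (log2 difference 3.58 ± 0.18, adjusted p = 7.13e-19).

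Nfkbib codes for IκBβ, and its promoter CRE (chr7:28764511-28767575) also holds the start of Sirt2, so the 2 genes cannot be told apart there. It went from 209 and 215 to 1170 and 1204 within 30 min, a 5.60-fold mean difference, and then to 764 and 818 at 1 h and 708 and 716 at 4 h (log2 difference 2.46 ± 0.10 at 30 min, adjusted p = 8.59e-20). A CRE in its window nearer to Rinl (chr7:28779551-28782220) fell, by a log2 difference of -1.92 ± 0.19 at 2 h. Nfkbie codes for IκBε. Its promoter (chr17:45553757-45558976) had 243 and 276 in UT, 1031 and 1192 at 30 min, 1180 and 1181 at 2 h and 869 and 898 at 4 h, without the early peak of Nfkbib (log2 difference 2.17 ± 0.10 at 2 h, adjusted p = 6.46e-20). The other CREs in the window of Nfkbie were nearer to other genes and none of them was called.

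Nfkbiz codes for IκBζ, a nuclear protein that acts with p50 on late targets of LPS. The promoter of its upstream start (chr16:55837950-55840194) had 167 and 200 in UT, 556 and 657 at 30 min, 509 and 532 at 1 h, 552 and 625 at 2 h and 484 and 492 at 4 h, a plateau reached by 30 min (log2 difference 1.70 ± 0.12, adjusted p = 2.52e-14). Of its 11 CREs 10 rose. The intron CRE 2644 bp downstream of that start (chr16:55835157-55836838) went from 13 and 16 to 250 and 271 at 4 h (log2 difference 3.77 ± 0.19, adjusted p = 6.16e-19). Past the gene, 2 intergenic CREs 18296 and 23076 bp downstream of its other, more downstream start, chosen after their values were seen, were highest at 30 min and then fell back. The nearer of them had 65 and 72 in UT, 414 and 448 at 30 min, 157 and 175 at 2 h and 76 and 98 at 4 h.

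Tnfaip3 codes for a ubiquitin-editing enzyme that shuts off signalling to IKK. Its promoter (chr10:19013715-19016395) had 204 and 219 in UT, 929 and 977 at 30 min, 841 and 963 at 1 h, 1018 and 1026 at 2 h and 984 and 1062 at 4 h (log2 difference 2.25 ± 0.10 at 4 h, adjusted p = 1.56e-20). It did not return toward UT within 4 h. All 7 CREs rose. The intergenic CRE 3851 bp upstream (chr10:19018411-19020112) had the largest log2 difference of all 56 CREs tested, from 8 and 15 in UT to 206 and 267 at 30 min, 364 and 414 at 1 h, 740 and 794 at 2 h and 784 and 866 at 4 h (5.68 ± 0.17, adjusted p = 1.36e-24), a 71.7-fold mean difference. A CRE of 16165 bp over the gene body, which holds a 2nd start (chr10:18997399-19013563), carried the most signal of the locus, from 203 and 228 to 2333 and 2707 (log2 difference 3.52 ± 0.10 at 4 h).

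**Figure D2:**
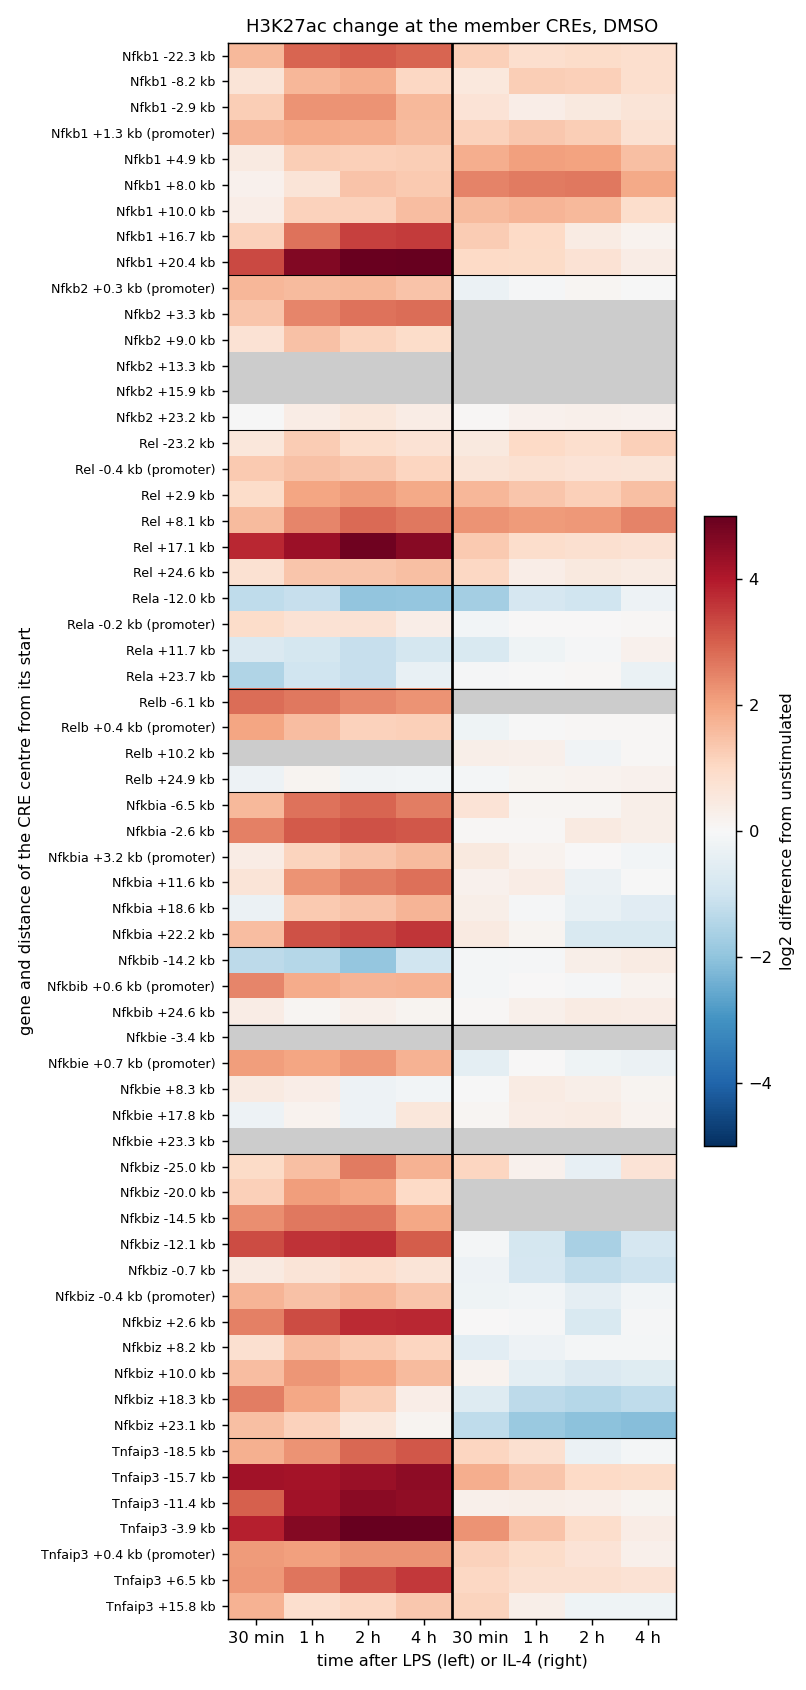
The log2 difference from unstimulated DMSO cells at each of the 61 CREs (one line per CRE, labelled by gene and distance of the centre from its start) for the 4 times after LPS on the left and after IL-4 on the right, as colour. Grey marks CREs that were not tested, and the LPS side is higher at 43 CREs and lower at 4.

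Most of the distal CREs that rose were highest late in the course. Of the 9 promoter CREs that rose, 4 had their largest difference at 30 min, 2 at 1 h, 1 at 2 h and 2 at 4 h. Of the 34 other CREs that rose, 4 had it at 30 min, 4 at 1 h, 12 at 2 h and 14 at 4 h. A direct comparison of 4 h with 30 min after LPS, chosen after these courses were seen, used the thresholds 0.01 for the adjusted p and 0.5 for the absolute log2 difference (limma). Of the 56 CREs 28 were called, 22 higher and 6 lower at 4 h, beside 34.4% of all CREs (19.0% higher and 15.4% lower). Among the promoters Nfkbia was higher at 4 h (log2 difference 1.19 ± 0.08, adjusted p = 2.2e-14), and Rela (-0.61 ± 0.11, adjusted p = 1.98e-05), Relb (-0.75 ± 0.13, adjusted p = 8.15e-06) and Nfkbib (-0.73 ± 0.10, adjusted p = 2.62e-07) were lower. Without LPS 4 h replicate 1 the value of Rela (-0.465) missed the size threshold. Per kb, with the limit on widths given above, the CRE of 8521 bp at the Nfkbia promoter had the lowest level of the 10 at 30 min, 120 ± 10.1 (SD, n = 2), where Nfkbib was highest at 387 ± 7.84. By 4 h it had moved up to 275 ± 15.9, behind Tnfaip3 at 382 ± 20.6 and overlapping Nfkb2 at 279 ± 7.91. Undivided by width, its values at 30 min were above those of Rela, Relb and Nfkbiz.

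Fewer of these CREs were called after IL-4. In DMSO cells 52 of the 61 CREs were tested and 19 were called, 14 higher and 5 lower, beside 24.7% of all CREs (13.6% higher and 11% lower), with a median log2 difference of 0.42 against 0.21 over all. The CREs that rose belonged to Nfkb1 (5 CREs), Rel (3 CREs) and Tnfaip3 (6 CREs), those that fell to Nfkbiz (4 CREs) and Rela (1 CRE). No CRE in the windows of Nfkb2, Relb, Nfkbia, Nfkbib and Nfkbie was called.

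At the Nfkb1 promoter IL-4 gave 734 and 769 at 30 min, 838 and 852 at 1 h, 746 and 819 at 2 h and 556 and 574 at 4 h, above the 329 and 337 of UT at every time (log2 difference 1.33 ± 0.09 at 1 h, adjusted p = 3.22e-18). The strongest IL-4 differences of the gene were in introns close to the start, at 3 CREs named here after their values were seen. The one 7988 bp downstream had 25 in both UT libraries, 155 and 170 at 30 min, 172 and 178 at 1 h and 170 and 189 at 2 h, against 24 and 36 at 30 min and 75 and 77 at 2 h after LPS (log2 difference after IL-4 2.62 ± 0.17, adjusted p = 8.71e-19). It thus reached higher values after IL-4 than after LPS at all 4 times, with no overlap. The CRE 4887 bp downstream rose from 67 and 83 to 304 and 351 at 1 h (2.06 ± 0.13, adjusted p = 8.67e-19), and that 9985 bp downstream from 12 and 21 to 60 and 67 (1.70 ± 0.26, adjusted p = 3.7e-07).

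Summed over its own 9 CREs, Nfkb1 stood at 505.5 ± 6.36 (SD, n = 2) in UT and at 1541.5 ± 23.3 at 1 h after IL-4, a 3.05-fold difference, against 2443.5 ± 9.19 at 1 h after LPS. At Rel, the promoter had 754 to 854 in the IL-4 libraries of the first 2 times and 775 to 809 in those of the last 2, above the 487 and 490 of UT, but its log2 difference of 0.75 ± 0.08 missed the size threshold (adjusted p = 7.27e-11). The Rel intron CRE 8126 bp downstream, also chosen after its values were seen, rose from 26 and 31 to 177 and 191 at 4 h (log2 difference 2.50 ± 0.18, adjusted p = 1.29e-16), overlapping the 189 and 221 that LPS gave at that time.

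At Tnfaip3 the response to IL-4 was early and faded. The promoter had 440 and 510 at 30 min, 371 and 450 at 1 h, 326 and 359 at 2 h and 247 and 256 at 4 h, against 204 and 219 in UT (log2 difference 1.15 ± 0.12 at 30 min, adjusted p = 6.23e-12). The upstream CRE that had the largest LPS difference went from 8 and 15 to 70 and 71 at 30 min and 10 and 24 at 4 h (log2 difference 2.23 ± 0.32, adjusted p = 3.05e-07).

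At Nfkbiz, H3K27ac fell after IL-4 at 4 CREs, named here after their values were seen. The intergenic CRE 23076 bp past the downstream start had 153 and 161 in UT, 56 and 68 at 30 min and 27 and 37 at 4 h (log2 difference -2.14 ± 0.24, adjusted p = 1.74e-10), where LPS had given 411 and 499 at 30 min. The CRE that holds that start fell from 553 and 615 to 243 and 261 at 2 h (-1.20 ± 0.11, adjusted p = 2.11e-14). The intron CRE of Nxpe3 12095 bp before the upstream start (-1.61 ± 0.36) and the CRE 18296 bp past the downstream start (-1.44 ± 0.30) were the others. The Nfkbiz promoter of the upstream start was not called, with 155 and 158 at 30 min and 127 and 140 at 2 h against 167 and 200 in UT (adjusted p = 0.103).

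Compared directly in DMSO cells at matched times, LPS and IL-4 differed at 45 of 57 CREs tested, 38 higher and 7 lower after LPS, beside 58.4% of all CREs (29.2% higher and 29.2% lower). The promoters of Nfkb2, Rela, Relb, Nfkbia, Nfkbib, Nfkbie, Nfkbiz and Tnfaip3 were higher after LPS, with Rela only just past the size threshold (1.07 ± 0.11 at 30 min) and at 0.978, below it, after quantile normalization. Those of Nfkb1 (0.83 ± 0.09) and Rel (0.72 ± 0.08) missed the size threshold. The 3 Nfkb1 intron CREs near the start were higher after IL-4, most clearly that 7988 bp downstream (-2.28 ± 0.22 at 30 min, adjusted p = 2.79e-15). The upstream CREs of Tnfaip3 (5.31) and Nfkbiz in Nxpe3 (5.30) had the largest differences in favour of LPS.

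The CKI libraries give a separate set of courses, since they share no library with DMSO. Over all 58 CKIs together, LPS changed 38 of the 61 CREs, 36 higher and 2 lower, beside 28.9% of all CREs (15.4% higher and 13.5% lower), with a median log2 difference of 1.18 against 0.27. Of the 43 CREs higher in DMSO, 36 were higher here and 7 were not called, and of the 4 lower in DMSO, 2 were lower here. Those 2 were the CREs nearer to Sipa1 and Rinl, and the 2 nearest to Rela that fell in DMSO were not called here. The promoters of 8 genes rose, from 1.03 ± 0.04 at Nfkbia (4 h) to 1.78 at Nfkbib (30 min), while Rel (0.89) and Rela (0.54) missed the size threshold. The Nfkbia value was below that threshold after quantile normalization (0.944) and after rescaling to equal totals (0.993).

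The slower course of the wide CRE at the Nfkbia promoter, which also covers the gene body, held in these libraries. Of 58 CKIs, 25 had a higher Nfkbia promoter value than their own UT libraries at 30 min, with a median log2 difference of -0.05, whereas 56 of 57 did at 1 h, 54 of 55 at 2 h and 55 of 55 at 4 h, where the median was 1.01. At Nfkb1 and Nfkbib, 58 of 58 CKIs were above their UT at 30 min. In the comparison of 4 h with 30 min, 25 CREs were called over the CKI libraries, 21 higher and 4 lower, beside 30.0% of all CREs (15.8% higher and 14.2% lower). Of these, 19 higher and 4 lower were called in the same direction in DMSO. Nfkbia (1.09 ± 0.04), Relb (-0.64 ± 0.05) and Nfkbib (-0.58 ± 0.05) were among them, and so were the 2 intergenic CREs downstream of Nfkbiz.

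After IL-4, 5 of 61 CREs were called over the CKI libraries, all higher, beside 8.84% of all CREs (5.33% higher and 3.5% lower). They were the 3 Nfkb1 introns near the start, at log2 differences of 1.37 ± 0.05, 1.78 ± 0.07 and 1.11 ± 0.08 in order of distance, and the Rel introns 2913 bp (1.20 ± 0.11) and 8126 bp (1.59 ± 0.11) downstream, all 5 of which were also called in DMSO. No promoter was called, and Nfkb1 came nearest at 0.93.

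IMD0354 was compared with DMSO over the UT and LPS libraries, with 1 log2 difference per CRE averaged over time. Among the CREs called, strong ones were lower under IMD0354 and weak ones were higher. With thresholds of 0.05 for the adjusted p and 0.5 for the absolute log2 difference, 22 of the 61 CREs were called, beside 40.1% of all CREs (37.8% higher and 2.25% lower). The 15 higher ones had DMSO means of 4.8 to 246.1, with a median of 21.5, and the 7 lower ones had 334.3 to 947.7, with a median of 621.2. The lower ones were the promoters of Nfkb1 (-0.58 ± 0.13, adjusted p = 2e-04), Nfkb2 (-0.51 ± 0.13, adjusted p = 0.000805), Rel (-0.53 ± 0.12, adjusted p = 0.00037), Nfkbib (-0.56 ± 0.13, adjusted p = 0.000378), Nfkbiz (-0.66 ± 0.15, adjusted p = 0.000361) and Tnfaip3 (-0.64 ± 0.14, adjusted p = 0.000187) and a CRE downstream of Nfkbia (-0.68 ± 0.16). The promoters of Rela, Relb, Nfkbia and Nfkbie had -0.49, -0.32, -0.39 and -0.31 and were not called. Calls near the size threshold moved with single libraries. Without the UT library of IMD0354 those of Nfkb2 (-0.477) and Rel (-0.464) were lost, that of Nfkb2 also without replicate 1 at 1 h (-0.471) or 2 h (-0.429), and both with DMSO replicate 1 alone. Rela gained a call without the IMD0354 library at 30 min (-0.514) or replicate 2 at 2 h (-0.556), and with DMSO replicate 2 alone (-0.558).

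Library contrast was lower in IMD0354 (median 16.84) than in DMSO (median 75.1), and its part in these differences was not tested. After quantile normalization, which took the median of all CREs from 0.454 to -0.008, no promoter was called, with Nfkb1 at -0.190, Nfkbib at -0.221, Nfkbiz at -0.397, Tnfaip3 at -0.278 and Nfkbia at 0.027. Nor were lower values particular to IMD0354. Of 52 CKIs with every LPS time, 52 lay below DMSO at the promoters of Nfkb1, Rel, Nfkbib and Nfkbiz, and 41 to 50 did at the other 6. At the distal CREs with the largest LPS difference, 46 to 52 did at Nfkb1, Rel, Nfkbia, Nfkbiz and Tnfaip3. Only 8 did at Nfkb2, 5 at Relb and 0 at Rela. Such counts were not made over all CREs, so they are not particular to these promoters.

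A reference closer in contrast, with a median of 18, is the 9 other CKIs beside IMD0354 in 1 run of columns of the table. They are Mubritinib, Talmapimod, TG100115, OSI930, MK2461, PF04691502, XL413, MK2206 and Lenvatinib, with 77 libraries. The labels name no batch, and the run is only a stretch of columns. These CKIs are active compounds and not a vehicle, and the paper reports raised Ifnb1 expression under Mubritinib, Lenvatinib and IMD0354. It also reports gains of H3K27ac that were predictable from the signal-induced changes for only a few CKIs. IMD0354 was among these, as were Mubritinib, Lenvatinib, XL413 and Talmapimod of this run, and Bafetinib of another. An effect that IMD0354 shares with the CKIs of its run would not show in this comparison, so no difference from the run does not mean no effect. At the Nfkb1 promoter IMD0354 had 303 in UT, 701 at 30 min, 646 and 748 at 1 h, 578 and 856 at 2 h and 691 at 4 h, and the medians of its run were 276, 795, 832, 784.5 and 626. At Nfkbia it had 864 in UT, 725 at 30 min, 993 and 1272 at 1 h, 1303 and 1638 at 2 h and 1655 at 4 h, with its highest value at 4 h, as in DMSO, while the 30 min value lay below UT. At Nfkbib it had 208 in UT, 678 at 30 min, 460 and 583 at 1 h and 413 at 4 h, again with its highest value at 30 min. At Tnfaip3 it had 196 in UT and between 469 and 620 in the 6 LPS libraries, none of which reached the 841 that was the lowest LPS value in DMSO.

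**Figure D3:**
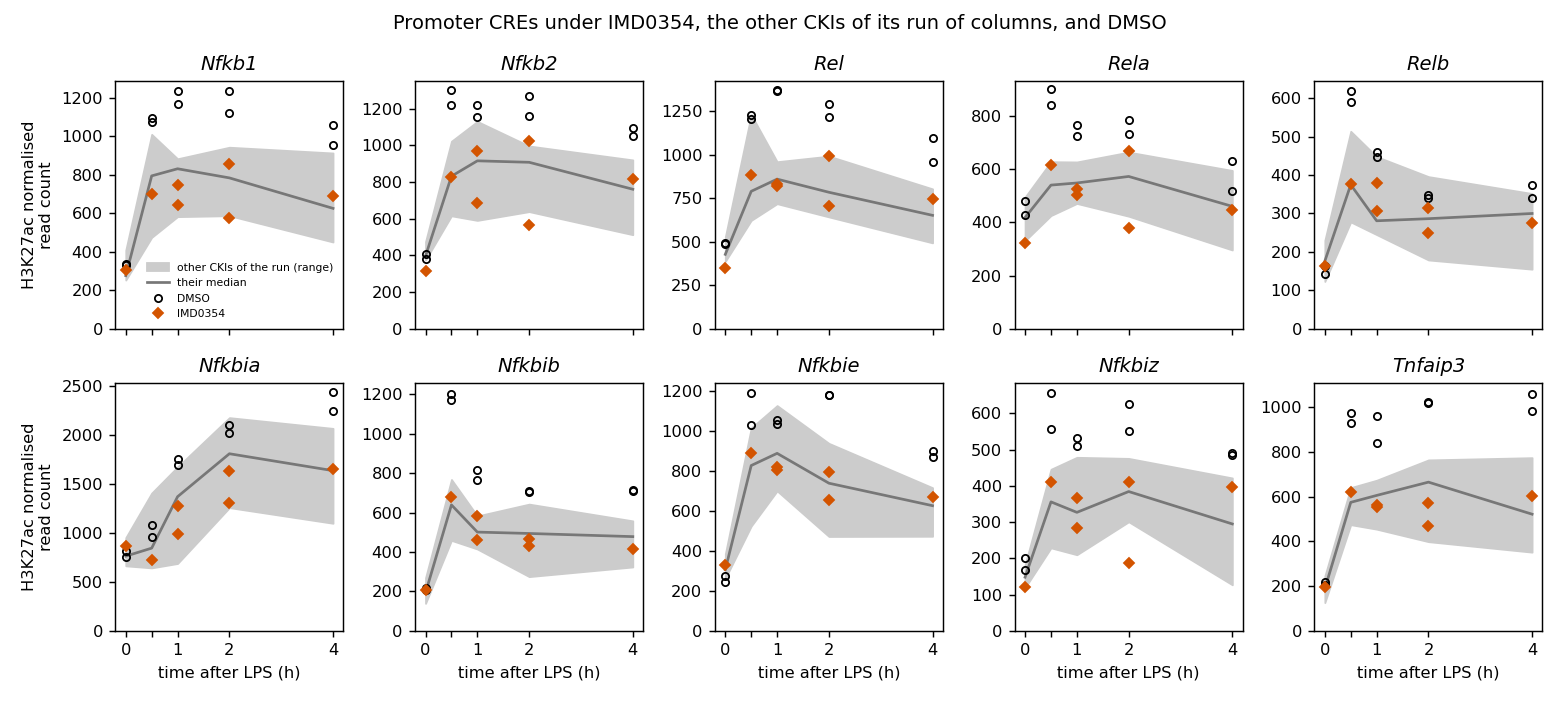
H3K27ac (normalized read count) against hours after LPS at the 10 promoter CREs, with 0 h unstimulated, for single IMD0354 libraries (diamonds), single DMSO libraries (open circles) and the range (grey) and median (line) of the other CKIs of its run. The IMD0354 values rise after LPS at Tnfaip3 from 196 to between 469 and 620, inside the grey band and below DMSO.

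Against its run, IMD0354 differed at none of the 61 CREs after LPS (limma, 0 called, 3 at an unadjusted p under 0.05), where 0% of all CREs were called and 5.32% had such a p. At the 10 promoters the log2 differences ran from -0.10 to 0.04 and their 95% intervals from -0.31 to 0.26, so differences of over 0.31 in either direction lay outside these intervals. Over all 61 CREs the intervals reached from -0.87 to 0.96, so at weaker CREs larger differences could not be seen at this depth. The mean of the IMD0354 libraries lay inside the range of the run at 39 of 40 combinations of promoter and LPS time. The exception was Nfkbiz at 2 h, with 186 and 411. Places inside the range were not counted over all CREs, here, in UT or after IL-4, so these counts only describe the promoters. In UT 7 of 10 promoters lay inside, and Nfkb2 (315 against 375 to 475), Rel (347 against 387 to 527) and Rela (322 against 331 to 495) lay below the run. After IL-4, 0 of 61 CREs differed from the run (4 at an unadjusted p under 0.05), beside 0.0220% of all, and 30 of 40 promoter values lay inside its range. Against DMSO after IL-4, 23 CREs were called, 21 higher and 2 lower, beside 42.2% of all (41.1% higher and 1.09% lower), and the 2 lower were the Tnfaip3 promoter (-0.52 ± 0.15, adjusted p = 0.00252) and the Rel intron CRE 2913 bp downstream (-0.94). The 21 higher had DMSO means of 4.8 to 970.4 and the 2 lower 106.7 and 621.2, so the levels overlapped, unlike after LPS. After quantile normalization 2 CREs were called, both higher, so both lower calls were lost. The Tnfaip3 promoter was then at -0.417, and its call was lost also without the IMD0354 library at 30 min (-0.475) or 4 h (-0.469) and with DMSO replicate 2 alone (-0.459).

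**Figure D4:**
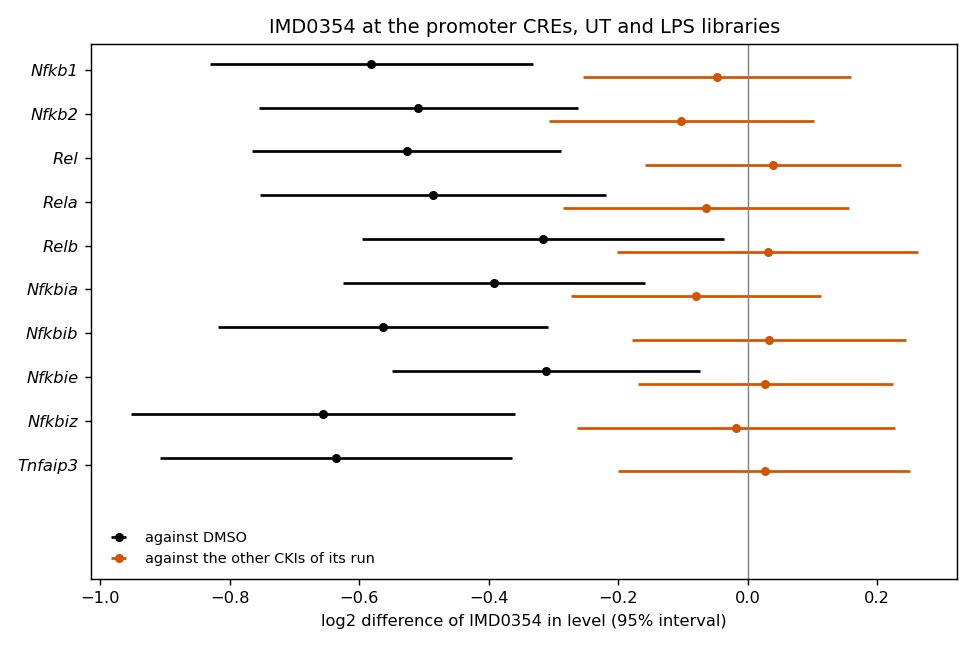
Log2 difference of IMD0354 in H3K27ac at the 10 promoter CREs, over the unstimulated and LPS libraries, against DMSO (black) and against the other CKIs of its run (orange), with 95% intervals. The differences from DMSO lie between -0.66 and -0.31 and those from the run between -0.10 and 0.04.

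The gain from UT to LPS was compared as well as the level. Against its run, the LPS response of IMD0354 differed at 0 of 61 CREs (limma, 2 at an unadjusted p under 0.05), beside 0.0828% of all. At the promoters the differences in log2 response ran from -0.30 to 0.43 with 95% intervals of -0.81 to 0.99, wider because IMD0354 has 1 UT library. Against DMSO, 2 CREs had a smaller response, beside 0.294% of all CREs (0.0237% higher and 0.270% lower), and both lay at Tnfaip3. In the CRE over the gene body the response was smaller by a log2 difference of -1.75 ± 0.34 (adjusted p = 0.00175), and in the intergenic CRE 15710 bp upstream (chr10:19030175-19032065) by -2.67 ± 0.55 (adjusted p = 0.00439). With DMSO replicate 1 alone as the reference 0 of these calls were left, and 1 was left after quantile normalization and 1 with a pseudocount of 20.

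At the first of these, UT was 618 in IMD0354, 203 and 228 in DMSO and 425 to 780 in the run, while the IMD0354 library at 4 h had 2163 against 2333 and 2707 in DMSO. At the other, UT was 63 in IMD0354, 6 and 10 in DMSO and 10 to 102 in the run, and at 4 h IMD0354 had 303 against 265 and 292. The gap at both was thus one of the UT level more than of the LPS level. The mean LPS response at the upstream CRE was 1.71 in IMD0354, 4.29 in DMSO and 0.62 to 3.79 in the 52 CKIs, and that at the gene body CRE 1.18, 2.90 and 0.61 to 2.17. Every one of the 52 was below DMSO at both. These 2 CREs were picked for a larger response in DMSO than in IMD0354, which favours a high place of DMSO. The same count was not made over all CREs.

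Over all compounds, the mean log2 LPS response of the 10 promoters was 1.554 in DMSO and ran from 0.487 in AZD2014 to 1.541 in Lapatinib among the 52 CKIs with complete LPS courses. IMD0354, at 1.131, held place 35 counted from the lowest, and its run spanned 0.858 to 1.268. Neratinib, whose intended target is likewise MAP4K5, had 0.632. Among CKIs whose intended target acts near NF-kB, the response was 0.912 for Momelotinib (IKBKE), 1.073 for Midostaurin (TBK1), 0.73 for Filgotinib (IRAK1), 1.268 for MK2461 (IRAK4), 0.868 for Lenvatinib and 0.97 for Vandetanib (both RIPK2), and 0.961 for SGI1776 and 0.53 for Omipalisib (both IRAK3). These values are given side by side with no test, since doses differ and most groups held 1 library. The runs of columns themselves had medians from 0.75 to 1.446, and the part of run and contrast in these values was not tested.

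**Figure D5:**
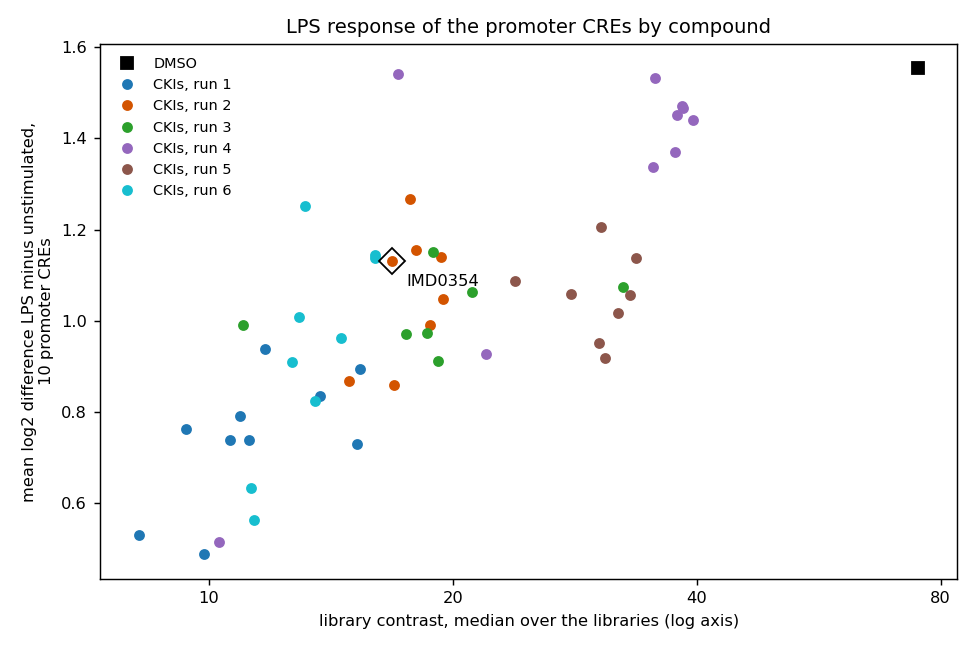
Mean log2 difference of LPS from unstimulated over the 10 promoter CREs (vertical axis) against the median library contrast (horizontal log axis) for each CKI with complete LPS courses, coloured by run of columns, and DMSO (square). IMD0354 (diamond) sits at 1.131 inside the span of its run, 0.858 to 1.268, and DMSO at 1.554 has the highest contrast.

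The neighbours in the pathway were read at their promoter CREs from 3 lists. Of 28 genes of the kinases and adaptors upstream that had a promoter CRE, 10 rose and 3 fell after LPS in DMSO cells, with a median log2 difference of 0.77. Over all CREs 53.5% were called, 29.0% higher and 24.6% lower, with a median of 0.37. The total called was thus not above the share of all CREs, while the share that rose was somewhat larger. The largest were Traf1 (2.38 ± 0.09), which codes for an adaptor of TNF receptors, Ikbkb itself (2.01 ± 0.13 at 2 h) and Traf2 (1.93). The 3 that fell, named after their values were seen, were Tab1, Map3k14 (the kinase of the non-canonical pathway) and the LPS receptor Tlr4, at -1.29, -1.25 and -1.09. Of 15 other inhibitors and modulators 5 rose and none fell. The share called was smaller than over all CREs, and the share that rose was slightly larger. The largest was Tnip1, a partner of the Tnfaip3 protein, at 2.65, then Tnip3 (1.54), Tax1bp1 (1.26), Tnfaip8 (1.14) and Rnf11 (1.03). Of 21 known targets 17 rose and 2 fell, and the cytokine genes Il6 (4.20), Il1a (4.01) and Il12b (3.74) led. The 2 that fell were Cxcl3 (-1.40) and Plau (-1.11).

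After IL-4 none of the 28 upstream genes was called (limma, 14 at an unadjusted p under 0.05), 1 of 15 modulators rose (Tnip3, 1.07), and 5 of 19 targets tested rose while Cxcl3 fell (-1.11), beside 24.7% of all CREs called. Those that rose were Cd40 (2.14), Il1a (1.89), Ccl2 (1.25), Il6 (1.24) and Cd83 (1.05). In IMD0354 after LPS none of the genes on the 3 lists differed from the run (limma, 0 called, with 1, 2 and 0 of 28, 15 and 21 at an unadjusted p under 0.05, beside 5.32% of all CREs). In the LPS response against the run 0 were called too. At an unadjusted p under 0.05 (limma) there were 1 of 28, 1 of 15 and 6 of 21, beside 4.39% of all. The share among the 21 known targets was thus above that of all CREs, with a median log2 difference of 0.019. Against DMSO after LPS, 9 of the 28 upstream genes and 2 of the 15 modulators (Bcl3 and Tnip3) were lower, and 3 of the 21 targets were higher (Cxcl1, Vcam1 and Csf2) and 2 lower (Birc2 and Csf1), all named after their values were seen, beside 37.8% of all CREs higher and 2.25% lower. The gap in contrast between IMD0354 and DMSO given above applies to these counts as well, and its part in them was not tested. Ikbkb, the gene of its nominal target, had a log2 difference of 0.13 ± 0.11 from the run.

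Among 18472 CREs with a mean of at least 100 in DMSO, the 5 whose course over the 9 DMSO groups was most like that of the Nfkbia promoter had as nearest genes Maf (Pearson r = 0.994), Rin2 with 2 CREs (0.991 and 0.990), Tmigd1 (0.988) and Olfr266 (0.987). The correlation is over 9 group means of the same libraries and is a description only.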

How the data were processed

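H3K27ac was measured by ChIP-seq in 564 libraries of BMDMs, grouped by the treatment label. UT labels name 4 h without stimulus and their titles time 0, and UT served as the start of both courses. A further library of 1 CKI, stimulus and time counted as a separate sample. The authors trimmed single-end reads, mapped them to mm10 with ShortStack, counted them around summits of open chromatin and scaled libraries on invariant peaks. The submitters' processing notes also name Bowtie and SAMtools. The deposited table holds read counts after scaling, rounded by the authors to whole numbers, and its unit was treated as a score.

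Members and lists were chosen with earlier results of these data known. CREs were matched to RefSeq starts within 25 kb. The promoter CRE of a gene is the one whose centre is nearest to its start within 1 kb, or else the one that holds it. Named for each gene were the promoter CRE and the own CRE with the largest LPS difference, and from each pathway list the 3 largest differences. Values were tested as log2(value + 5), which understates changes of low CREs, with limma 3.58.1 in R 4.3.3 for CREs with a mean of at least 10, and p-values were adjusted (Benjamini-Hochberg) over all CREs tested. Courses took an F-test over the 4 times against UT. CKI effects were fitted over all compounds with time and compound as factors, so most of the spread of single libraries came from other compounds. Runs of columns served as a technical reference only. Depth was estimated from the spacing of the values. The tests were also run on simulated data. Replicates 1 and 2 of DMSO did not deviate together (r from -0.087 to 0.066 over 36 pairs of groups), so the numbers were not taken as pairs.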

Additional observations from a re-analysis of the deposited data

Results flagged for a closer look

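Both CREs whose LPS response under IMD0354 differed from that of DMSO are at Tnfaip3. The difference in log2 response was -1.75 at the CRE over the gene body and -2.67 at the intergenic CRE 15710 bp upstream, by limma's test of the interaction. In both, the UT value of IMD0354 (618 and 63) lay above both DMSO libraries and inside the span of its run, and neither CRE was called in the comparison of responses with the run. With DMSO replicate 1 alone neither was called, and 1 was called after quantile normalization. No group of 4 or more libraries existed for a check of single libraries within DMSO.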

How the results depend on the processing

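With the replicate number as a replicate block, 47 CREs were called after LPS, 20 after IL-4, 45 between the stimuli and 27 between 4 h and 30 min, against 47, 19, 45 and 28 without it. Leaving out 1 library at a time gave 46 to 48, 17 to 21, 44 to 46 and 23 to 28 calls for these. For IMD0354 it gave 16 to 22 calls against DMSO after LPS, 20 to 25 after IL-4, 2 to 3 for the LPS response, and 0 in every comparison with its run. Quantile normalization took the median LPS difference of all CREs from 0.37 to -0.29 and rescaling to equal totals to -0.21, while 43 members were called higher and 4 lower under both. With a mean of at least 50, calls were 11 for IL-4 in DMSO, and for IMD0354 against DMSO 13 after LPS and 6 after IL-4. Quantile normalization gave 3 calls after LPS, 2 of them among the 22 reported, and 2 after IL-4, and reversed the upstream CREs of Rela (-0.184) and Relb (-0.037) after IL-4. The LPS count against DMSO was 8 at an absolute log2 difference over 1 and 14 with DMSO replicate 1 alone. For the LPS response against DMSO, pseudocounts of 1 and 20 gave 5 and 1 calls, quantile normalization 1, and DMSO replicate 1 alone 0, beside 2 as reported. IL-4 over the CKI libraries gave 3 calls with a pseudocount of 20. The cause of these changes was not tested. For single CREs, 3199 of 3296 values kept their direction and side of the threshold, 72 lost and 23 gained a call, and 2 reversed. The LPS response of IMD0354 without its UT library could not be fitted. At 743951 to 2021065 reads a library, weak CREs of IMD0354 rest on few reads.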
